A study of Mus musculus with 9 samples.

Results

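The H3R2me2a peaks described here lie in a pair of regions of the mouse genome that hold genes of the 2-cell embryo. The first spans chr10:58000001-59000000 (build mm10) and holds the Duxf3 array, a tandem gene array that contains Duxf3 and LOC100504180. The second spans chr13:119000001-120421639 and holds Tmem267, Ccl28, Tcstv1, AF067063 and Tcstv3. All peaks listed there in any of the 6 libraries were taken, which gave 1566 of the 1541235 peaks on chromosomes 1 to 19 and X, 570 on chromosome 10 and 996 on chromosome 13. The regions were picked because earlier work on these same lists had found tall shared peaks there, so their heights and sharing are described and not tested.

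The series mapped H3R2me2a, the asymmetrically dimethylated form of the arginine at position 2 of histone H3, by chromatin immunoprecipitation with sequencing in mouse bone marrow cells that the series' text calls leukemia cells. Wild-type (WT) cells, cells with a knockout of Prmt6 (Prmt6KO) and cells with a knockout of Igf2bp2 (Igf2bp2KO) gave 2 H3R2me2a libraries each, and 3 inputs were not analysed here. All groups grew in serum with interleukin 3, interleukin 6 and stem cell factor, so no group shows cells without these cytokines. The labels give neither an age nor a leukemia driver, and do not tell if same-genotype libraries had separate animals or cultures as their source, so each spread given is between these libraries and may be technical. A peak list carries no measure of Prmt6 or Igf2bp2 transcript and no cell type markers, so neither the knockouts nor the cell type could be checked.

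PRMT6 is the main enzyme that writes H3R2me2a, and IGF2BP2 binds RNA that carries m6A. Duxf3 belongs to the Dux family of double homeobox transcription factors, which switch on a set of genes and retroelements at the 2-cell stage, when the embryo first transcribes its own genome. Tcstv1 and Tcstv3 belong to the 2-cell stage, variable group, whose transcripts peak at that stage. In somatic cells the Dux array is normally silent. The copies of such arrays are close to each other in sequence, so reads can be shared among copies, and a height given for 1 copy is uncertain to that extent.

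Peaks were called in each library on its own. Each peak's height is the number of fragments stacked at its summit, and each list used 1 constant background. That background was 1.46 and 1.44 fragments in WT replicates 1 and 2, 0.736 and 1.21 in Prmt6KO, and Igf2bp2KO had 1.45 and 1.33, so heights are given both in fragments and as a multiple of the library's own background. A peak at 6 times the background or more is called strong. That limit set few Igf2bp2KO peaks aside, as 956 of 961 and 1108 of 1221 were strong. The lists differed greatly in length, from 961 and 1221 peaks in Igf2bp2KO through 162454 and 133960 in WT to 812414 and 430225 in Prmt6KO, and the lowest summit listed was 8 and 7 fragments in Igf2bp2KO, 4 and 4 in WT, and 2 and 3 in Prmt6KO. WT replicate 1 stood apart from the other libraries on the sex chromosomes: its peak density relative to the autosomes was 0.182 on X and 0.376 on Y, against 0.774 to 1.24 on X and 0.00876 to 0.0482 on Y in the other 5. The regions here are autosomal, each library's value is printed, and the differences in highest summit and the counts of loci are also given without that library.

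The Duxf3 promoter is shown because 4 libraries listed a peak across it. RefSeq's promoter window, 250 bases before the start of Duxf3 to 50 after it, lies at chr10:58233040-58233339 on the minus strand (GRCm38.p6, which is mm10). Capitals mark the 51 bases that lay under a listed peak in all 4 WT and Prmt6KO libraries.
Duxf3 promoter: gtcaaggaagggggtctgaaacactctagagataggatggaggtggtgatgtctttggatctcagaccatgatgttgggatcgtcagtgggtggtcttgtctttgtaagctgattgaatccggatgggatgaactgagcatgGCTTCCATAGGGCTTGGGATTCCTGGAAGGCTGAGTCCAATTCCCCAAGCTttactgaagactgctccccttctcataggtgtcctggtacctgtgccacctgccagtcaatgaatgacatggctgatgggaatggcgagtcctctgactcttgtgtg
Of its 300 bases, 193 lay under a peak in WT replicate 1, 158 in WT replicate 2, 300 and 300 in Prmt6KO, and 0 in both Igf2bp2KO libraries. Of the 32 promoter windows of the regions that the RefSeq table holds, this was the only one with a peak in all 4 WT and Prmt6KO libraries. A further 7 met a peak in Prmt6KO replicate 1 alone and 24 met none, counts for which no share over all windows was computed. Over all windows of chromosomes 1 to 19 and X, 31 of 32619 (0.0950%) had a peak in all 4.

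Duxf3 itself (chr10:58229505-58233089, minus strand, 3585 bp, gene ID 74399) carried strong peaks in every library, where strong refers to height alone. In the chromosome 10 region, 12 and 9 WT peaks and 9 and 11 Prmt6KO peaks had q of 0.05 or below. No Igf2bp2KO peak of the region did in either library, so none at Duxf3 did. The highest summit within the gene held 17 and 16 fragments in WT, 11 and 14 in Prmt6KO, and Igf2bp2KO had 17 and 12. The WT libraries were above both Prmt6KO libraries in fragments, and the Igf2bp2KO libraries lay within the range of the other 4. As multiples of the library's own background the same summits were 11.6 and 11.1 (WT), 14.9 and 11.6 (Prmt6KO) and 11.7 and 9.0 (Igf2bp2KO). On that scale Prmt6KO was level with WT or above it, so the order of WT and Prmt6KO at Duxf3 turned with the scale. The group means were 16.5 ± 0.707 fragments in WT, 12.5 ± 2.12 for Prmt6KO and 14.5 ± 3.54 for Igf2bp2KO (SD, n = 2). Without WT replicate 1, the remaining WT value of 16 fragments was still above both Prmt6KO values. As a multiple of the background, that WT value of 11.1 was below both. In Prmt6KO replicate 1 the tallest peak that touched the gene had 12 fragments, 16.3 times the background, with its summit upstream of the start.

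Listed peaks covered most of Duxf3 in WT and Prmt6KO and less of it in Igf2bp2KO. The covered share of the gene was 79.2% and 65.1% for WT, 79.3% and 79.6% for Prmt6KO and 52.3% and 22.5% for Igf2bp2KO. Both Igf2bp2KO libraries were below the other 4. The Igf2bp2KO lists start at 8 and 7 fragments, a higher limit than in the other lists, and the part of that limit in the narrower peaks was not tested. Within 5 kb of Duxf3 there were 10, 10, 13, 9, 9 and 3 peaks in the 6 libraries in the order WT, Prmt6KO, Igf2bp2KO, where the average density of each list gives 0.839, 0.692, 4.19, 2.22, 0.00496 and 0.0063.

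The signal at Duxf3 was part of a longer run. A run joins loci, that is overlapping strong peaks of the libraries, where at least 3 libraries had a strong peak and gaps were below 5 kb. The run at Duxf3 spanned chr10:58221449-58239741 (18293 bp), from 11.6 kb downstream to 6.65 kb upstream of the start site of Duxf3, and joined 8 loci over LOC100504180, Gm10807, Duxf3, Gm4981 and Gm9919. The libraries listed 13, 13, 16, 12, 13 and 5 peaks in it, in the same order. Covered length was 61.3% and 58.7% in the WT pair, 66.3% and 65.8% in the Prmt6KO pair and 26.3% and 9.78% in the Igf2bp2KO pair. The plot of peaks around Duxf3 shows that Igf2bp2KO replicate 2 had no peak upstream of the start of Duxf3.

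**Figure D1:**
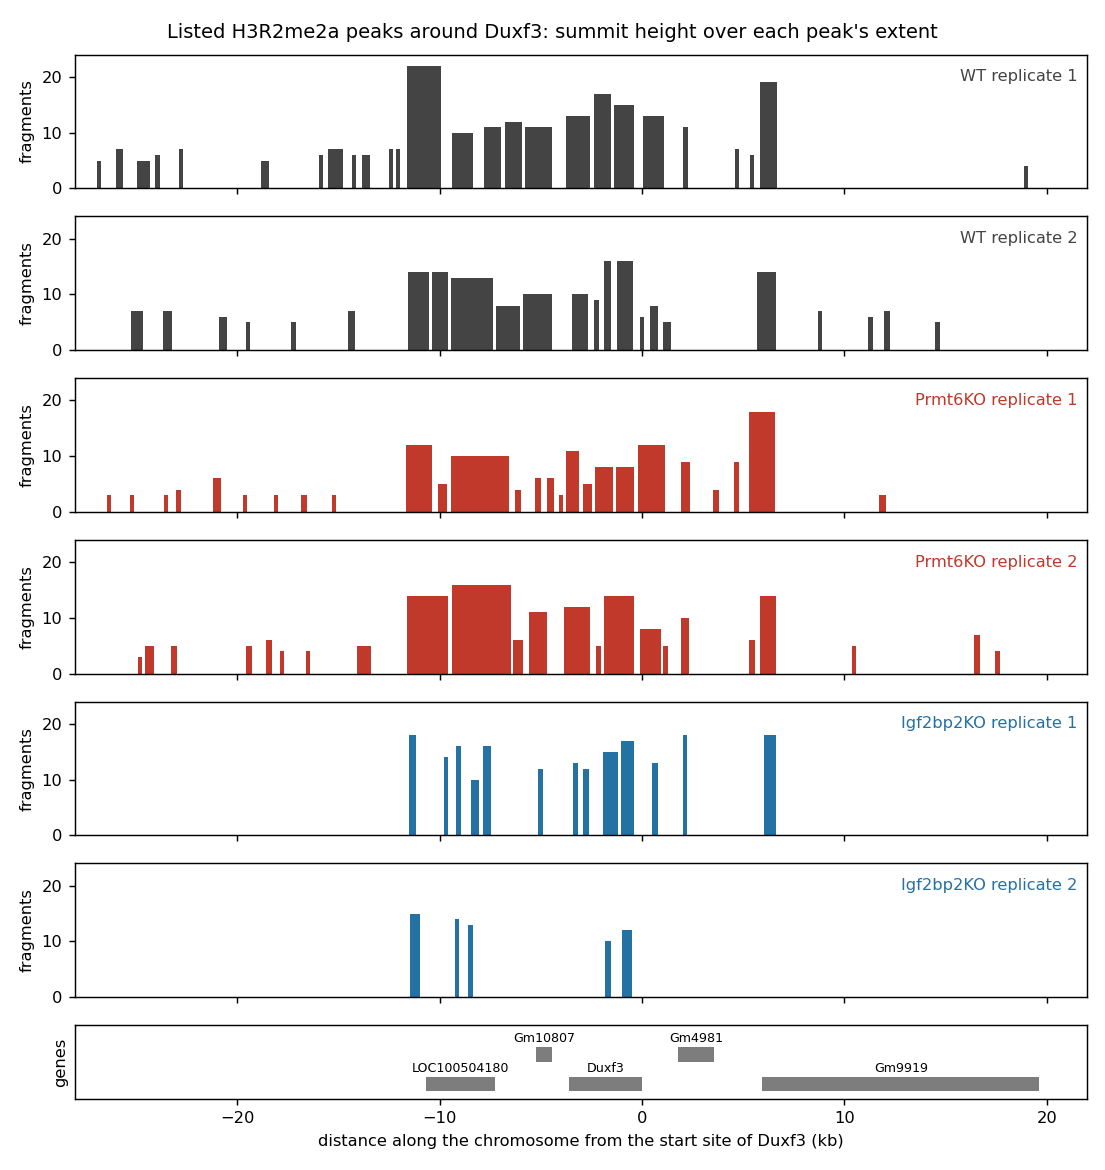
Listed H3R2me2a peaks around Duxf3 in the 6 libraries. The x axis is the distance along the chromosome from the start site of Duxf3 in kb, the y axis is the summit height in fragments, each bar spans 1 peak, and the bottom panel gives the genes. In WT and Prmt6KO, tall peaks cover most of the stretch from LOC100504180 to Duxf3 and stand again at the start of Gm9919. Cover over Gm4981, in between, is sparse. Igf2bp2KO has narrower peaks of similar height, 5 of them in replicate 2.

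LOC100504180 (chr10:58222403-58225832, gene ID 100504180), the neighbouring protein-coding gene of the array, had its highest internal summit at 11 and 14 fragments in WT, 10 and 16 in Prmt6KO, and Igf2bp2KO had 16 and 14. The 3 genotypes overlapped. A taller peak of 22 fragments in WT replicate 1 touched the gene with its summit just outside it. Peaks covered 68.9% and 88.2% of it in WT, 86.0% and 94.5% in Prmt6KO, and Igf2bp2KO had 35.7% and 14.2%, so here too both Igf2bp2KO libraries were the lowest. Gm10807, a pseudogene between LOC100504180 and Duxf3, met peaks of 11, 10, 6, 11 and 12 fragments in WT, Prmt6KO and Igf2bp2KO replicate 1, and no peak was listed in Igf2bp2KO replicate 2.

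On the other side of Duxf3, Gm4981 (chr10:58234848-58236660, protein-coding) reached 11 fragments in WT replicate 1, 9 and 10 in Prmt6KO and 18 in Igf2bp2KO replicate 1. WT replicate 2 and Igf2bp2KO replicate 2 listed no peak in it, so presence there did not follow genotype. The peak at the start of Gm9919, a non-coding RNA gene, held 19 and 14 fragments in WT, 18 and 14 in Prmt6KO, and 18 in Igf2bp2KO replicate 1. Igf2bp2KO replicate 2 again had none.

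Among the loci with a peak in all 6 libraries, ranked by the mean log2 height over background, the leading chromosome 10 locus was chr10:58221449-58223515 at the outer end of LOC100504180, at 3.65. It held 22 and 14 fragments in WT, 12 and 14 in Prmt6KO, and Igf2bp2KO had 18 and 15. Next came chr10:58230709-58232712 inside Duxf3, at 3.45, with 17, 16, 8, 14, 17 and 12 fragments in the order WT, Prmt6KO, Igf2bp2KO, and chr10:58223674-58227179 over LOC100504180, at 3.43, with 12, 13, 10, 16, 16 and 14. These 3, of 27 strong loci in the region, were strong in all 6 libraries, as 0.359% of the strong loci of chromosomes 1 to 19 and X were. A further 3 were strong in 5 libraries, lacking Igf2bp2KO replicate 2 in each case, and 2 in 4 libraries. Among them, the locus at Gm9919 had a mean of 3.75 over its 5 libraries, above the 3.65 of the leading locus.

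Over all listed peaks, the chromosome 10 region had about the density of its surroundings in WT and Prmt6KO. Its density relative to the 5 Mb on each side was 1.19 and 0.982 in WT, and 0.924 and 0.915 in Prmt6KO. The region's length includes its first bases, up to chr10:58206145, which held no peak in any list, as described below. For strong peaks, the region held 12 and 9 per Mb in WT against 1.6 and 0.7 in the flanks, 27 and 11 in Prmt6KO against 20.8 and 1.7, and 13 and 5 in Igf2bp2KO against 0 in the flanks of both libraries. Prmt6KO replicate 1 differed from the other 5 libraries in that its flanks were also rich in peaks at 6 times its low background. The tallest flank summit was 7.53 and 6.26 times the background in WT and 10.9 and 8.27 times in Prmt6KO, against 15.1, 11.1, 24.4 and 13.2 times inside the region.

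No library listed a peak in the 344400 bp at chr10:57861746-58206145, a short way below the run. This stretch crosses the lower boundary of the region, so moving that boundary within it would change no member. At the density of the region, it would hold 25.8 and 16.9 peaks in WT and 97.1 and 50.3 in Prmt6KO. Assembly gaps and read placement in this and the other empty stretches were not tested.

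Tcstv1 did not carry a strong peak in any library. In the gene (chr13:119893387-119894785, 1399 bp), the highest summit held 3 and 4 fragments in Prmt6KO, and no peak was listed in either WT or either Igf2bp2KO library. Within 5 kb of Tcstv1 there were 0 and 1 peaks in WT, 3 and 4 in Prmt6KO, and Igf2bp2KO had 0 and 0, beside 0.704, 0.58, 3.52, 1.86, 0.00416 and 0.00529 from each list's average density. The counts at Tcstv1 were thus close to those averages. The tall chromosome 13 peaks are therefore not named after Tcstv1 here.

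The other 2-cell genes nearby had few and low peaks. AF067063 (chr13:119827961-119830217), a gene transcribed at the 2-cell stage, reached 6 and 7 fragments in Prmt6KO, of which the first, at 8.15 times its low background, was strong, with no peak in the other 4 libraries. Tcstv3 (chr13:120316862-120318261) had 1 peak of 5 fragments in Prmt6KO replicate 2 and none elsewhere. From AF067063 to the chromosome's end, 593679 bp, the tallest summits held 11 and 8 fragments in WT and 6 and 9 in Prmt6KO, and no peak was listed in Igf2bp2KO. Of the 11 protein-coding genes of that stretch, 3 and 0 met a peak in WT, 6 and 6 in Prmt6KO, and Igf2bp2KO had 0 and 0. Over all protein-coding genes the shares were 51.9% and 45.7%, 87.3% and 69.9%, and 0.398% and 0.559%. These shares are not matched for gene length, which is 1399 bp at Tcstv1 and 1400 bp at Tcstv3. The density of listed peaks in that stretch was 77.5 and 64.0 per Mb in WT and 322 and 170 in Prmt6KO. The whole chromosome 13 region had 90.0 and 67.5 in WT and 317 and 202 in Prmt6KO.

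The only locus of that stretch that was strong in more than 1 library lay at chr13:120321377-120321659, just past Tcstv3. It held 9 fragments in WT replicate 1, 4 and 8 in Prmt6KO, and none in WT replicate 2 or Igf2bp2KO. It was strong in WT replicate 1 and Prmt6KO replicate 2, at 6.16 and 6.62 times the background, and below the limit in Prmt6KO replicate 1, at 5.43 times. Both Prmt6KO libraries thus listed a peak there, but no genotype had a strong one in both libraries. The 99975 bp after it, up to the chromosome's end, held no peak in any list, where the density of the region gives 31.7 and 20.2 in Prmt6KO.

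The genes around Tcstv1 include similar copies, and the promoters of one such pair are shown so that their likeness can be seen. Gm21761 lies at chr13:119913419-119913718 on the minus strand and AF067061 at chr13:120262845-120263144 on the plus strand (RefSeq promoter windows, GRCm38.p6). Capitals mark bases that are identical in the alignment of the pair.
Gm21761 promoter: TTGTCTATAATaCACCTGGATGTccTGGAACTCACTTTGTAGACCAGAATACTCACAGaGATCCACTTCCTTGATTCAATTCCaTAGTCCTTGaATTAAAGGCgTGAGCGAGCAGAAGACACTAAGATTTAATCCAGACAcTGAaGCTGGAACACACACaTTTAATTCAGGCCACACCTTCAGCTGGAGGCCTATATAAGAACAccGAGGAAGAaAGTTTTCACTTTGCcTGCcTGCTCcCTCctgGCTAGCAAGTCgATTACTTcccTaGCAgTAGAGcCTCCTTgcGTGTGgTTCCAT
AF067061 promoter: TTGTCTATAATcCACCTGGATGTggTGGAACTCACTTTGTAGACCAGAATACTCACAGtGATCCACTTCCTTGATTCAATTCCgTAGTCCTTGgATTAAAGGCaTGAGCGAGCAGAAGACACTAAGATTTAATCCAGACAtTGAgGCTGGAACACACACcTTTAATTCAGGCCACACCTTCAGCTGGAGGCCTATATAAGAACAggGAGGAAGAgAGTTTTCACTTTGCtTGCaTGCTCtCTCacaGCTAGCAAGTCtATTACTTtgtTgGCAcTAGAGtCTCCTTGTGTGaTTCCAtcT
The pair shared 271 of 298 aligned bases (90.9%), and neither window met a peak in any library. The sources used here do not give how reads with several matches were placed, and whether this bears on the copies was not tested.

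The loci of the chromosome 13 region that were strong in all 6 libraries lay instead at both ends of Tmem267 (chr13:119488086-119610459, plus strand, 122374 bp), which encodes a transmembrane protein. The run at its start spanned chr13:119488747-119495521 (6775 bp), from 0.661 to 7.43 kb after the start of the gene. The run at its end spanned chr13:119595669-119617694 (22026 bp), from 14.8 kb before the end of the gene to 7.24 kb past it. That run stopped 6.12 kb short of Ccl28, a chemokine gene, and lay 276 to 298 kb from the start of Tcstv1.

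The run at the end of Tmem267 held the tallest peaks of both regions. Its highest summit was 21 and 32 fragments in WT, 29 and 31 in Prmt6KO, and Igf2bp2KO had 66 and 38. Both Igf2bp2KO libraries were above the other 4, and WT and Prmt6KO overlapped. The means were 26.5 ± 7.78, 30.0 ± 1.41 and 52.0 ± 19.8 fragments (SD, n = 2), so the Igf2bp2KO libraries also differed most from each other.

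As multiples of the background, these summits were 14.4 and 22.2 (WT), 39.4 and 25.6 (Prmt6KO) and 45.5 and 28.5 (Igf2bp2KO). Here Prmt6KO and Igf2bp2KO overlapped and both were above WT. In the authors' fold enrichment, which for Igf2bp2KO was computed on fragments scaled down by 0.277 and 0.302, the same summits were 8.94, 13.5, 17.3, 14.5, 13.8 and 8.89, and the Igf2bp2KO values lay just above and just below the WT range.

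Peaks filled this run in all 6 libraries. They covered 65.2% and 83.8% of it in WT, 88.7% and 86.0% in Prmt6KO, and Igf2bp2KO had 73.2% and 57.9%, and the widest peak measured 3079, 4346, 4878, 5829, 5858 and 3922 bp. Unlike at Duxf3, the Igf2bp2KO shares overlapped those of WT, which was a difference in description and had no test.

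Inside the run, the leading locus was chr13:119595669-119603495, at a mean log2 height over background of 4.77, which holds the summits just given. The next was chr13:119612821-119617694, past the end of Tmem267, at 3.82, with 16 and 17 fragments in WT, 14 and 14 in Prmt6KO, and Igf2bp2KO had 28 and 19. The Igf2bp2KO values were the highest and the Prmt6KO values the lowest there. The locus chr13:119605792-119612651 across the gene's end, at 3.77, held 18 and 15, 11 and 14, and 28 and 20 fragments in the same order, and ranked the genotypes the same way. The locus chr13:119604331-119605531 was strong in 5 libraries and held 8, 13, 6, 9, 21 and 11.

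The run at the start of Tmem267 was weaker. Its highest summit held 9 and 11 fragments in WT, 9 and 14 in Prmt6KO, and Igf2bp2KO had 19 and 14, all in the locus chr13:119489985-119495521 (mean log2 height over background 3.30). WT and Prmt6KO overlapped, and both Igf2bp2KO libraries were at or above the tallest of them. As multiples of the background the values were 6.16, 7.65, 12.2, 11.6, 13.1 and 10.5, so both knockouts were above WT on that scale. The tallest flank summits were 8.21 and 7.65 times the background in WT and 10.9 and 7.45 times in Prmt6KO. In WT the run thus did not rise above the flanks. Covered length was 34.3% and 58.1% for WT, 68.0% and 80.2% for Prmt6KO and 50.7% and 40.7% for Igf2bp2KO. In this run too no Igf2bp2KO peak had q of 0.05 or below, against 1 and 2 in WT and 2 and 4 in Prmt6KO.

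Between the runs, 100113 bp inside Tmem267 (chr13:119495522-119595634) held no peak in any of the 6 lists. The density of the region gives 9.01 and 6.76 peaks there in WT and 31.7 and 20.2 in Prmt6KO. All listed peaks of the gene stood on either side of this stretch, as the plot of the chromosome 13 region shows.

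**Figure D2:**
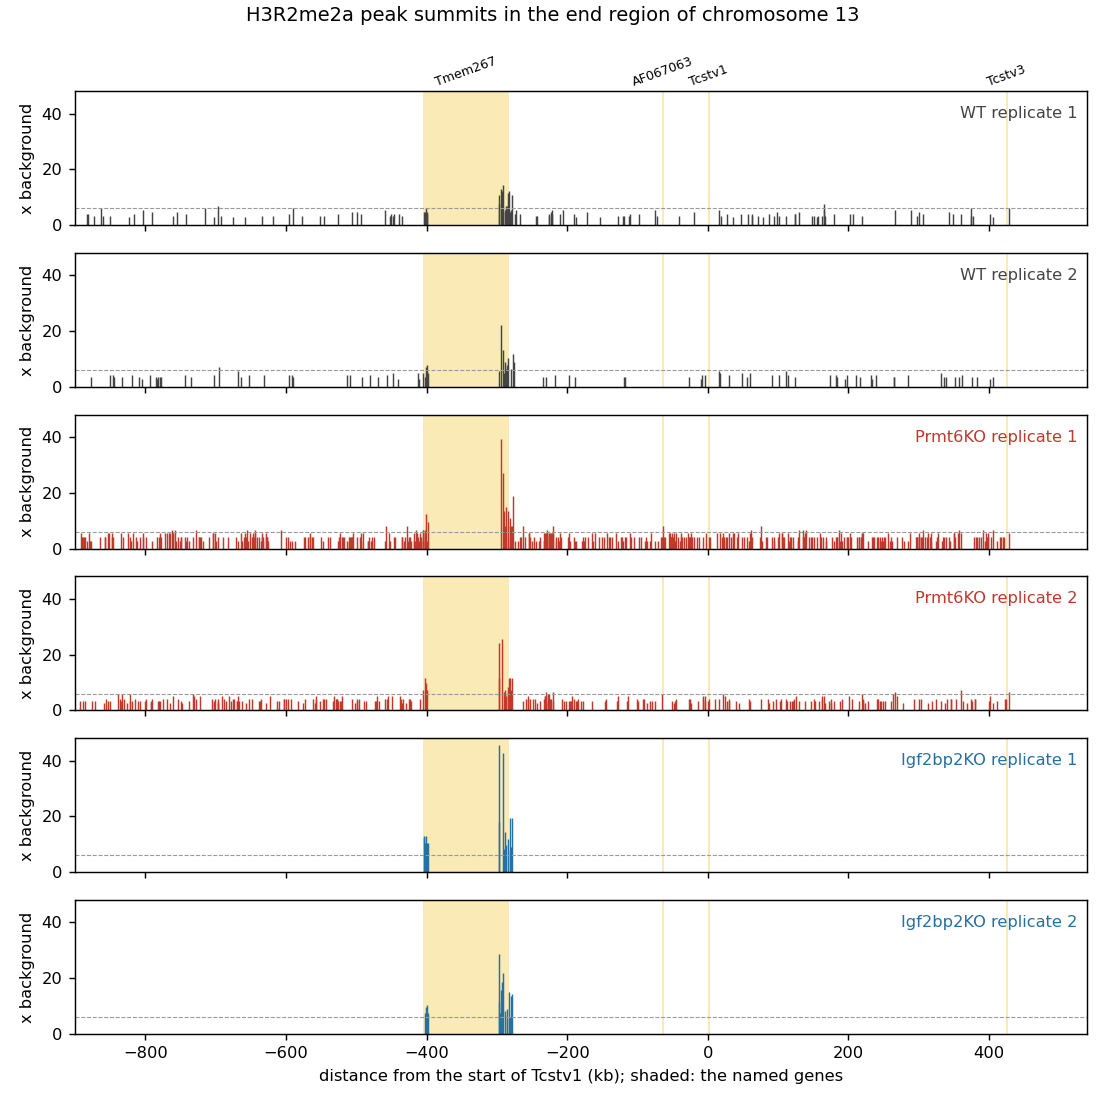
Summit height of every listed peak around Tcstv1 in the 6 libraries, as a multiple of the library's own background (y axis), against the distance from the start of Tcstv1 in kb (x axis). Shading marks Tmem267, AF067063, Tcstv1 and Tcstv3, and the dashed line is 6 times the background. Strong peaks stand at both ends of Tmem267 in each library, with no peak between. Those at its start reach only 6.16 and 7.65 times the background in WT. From AF067063 to the chromosome's end no peak exceeds 8.15 times the background.

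The Igf2bp2KO lists were confined to these runs within the regions. All 30 and 22 of their peaks in the regions lay in the 3 runs, and of their peaks in the flanks there were 0 and 1, the latter of 8 fragments. The runs take up 47094 bp, 0.00179% of chromosomes 1 to 19 and X, and held 3.12% (95% Wilson interval 2.2 to 4.42) and 1.8% (1.19 to 2.71) of the Igf2bp2KO lists. In WT the shares were 0.0209% (0.015 to 0.0292) and 0.0216% (0.0151 to 0.0311), and in Prmt6KO 0.00443% (0.0032 to 0.00613) and 0.00674% (0.00469 to 0.00968). The counts behind them were close to each other, 34, 29, 36, 29, 30 and 22 peaks, so the shares follow the length of the lists. The intervals cover counting error only and treat neighbouring peaks of a run as independent, which they are not. The runs were built from strong peaks of these same lists, so the shares describe the lists and test nothing.

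Loci that were strong in all 6 libraries stood in these regions and not in their flanks. The chromosome 13 region had 42 strong loci, 33 of them strong in 1 library and 4 strong in all 6, and the chromosome 10 region had 27, of which 19 were strong in 1 library and 3 in all 6. The flanks had 247 and 172 strong loci beside chromosomes 10 and 13, with 0 strong in all 6. The Igf2bp2KO lists held 0 and 1 peaks in the flanks, none of them strong. No flank locus could thus be strong in all 6, and this contrast is set by those short lists. Over chromosomes 1 to 19 and X, 247 of 68744 strong loci were strong in all 6. Only 60 of 2641 windows of 1 Mb (2.27%) held such a locus, and the windows from chr13:119000001 and chr10:58000001 held 4 and 3, ranks 14 and 16 among them. This sharing is what the regions were chosen for.

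Of the 29 protein-coding genes of the regions, 3 had a strong peak in the body or within 1 kb of it in all 6 libraries (0.291% of all protein-coding genes did), and these were Duxf3, LOC100504180 and Tmem267. Gm4981 had one in 4 libraries. Gcc2, which encodes a Golgi coiled-coil protein, had one in WT replicate 1 and Prmt6KO replicate 1, and Ranbp2, a nuclear pore gene, in both Prmt6KO libraries. Their peaks were low: the tallest to touch Gcc2 had 10 and 5 fragments in WT and 5 and 5 in Prmt6KO, and Ranbp2 6 and 6 in WT and 5 and 8 in Prmt6KO. A further 8 genes, namely Lims1, Ccdc138, Sh3rf3, Paip1, 4833420G17Rik, Ccl28, AF067063 and Gm36079, had one in Prmt6KO replicate 1 alone (32.1% of all), and 15 had none (57.1% of all), Tcstv1 and Tcstv3 among them.

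Which genotype was higher at the 7 shared loci depended on the scale. As multiples of the background, both Prmt6KO libraries were above both WT libraries at 1 of 3 chromosome 10 loci and 2 of 4 chromosome 13 loci, where 39.7% of all 247 loci strong in 6 libraries were, and below at 0 and 0 (3.64%). In fragments they were above at 0 and 0 (2.83%) and below at 1 of 3 and 2 of 4 (33.2%). Without WT replicate 1, the counts were 2 and 3 above as multiples and 1 and 3 below in fragments. A call against WT replicate 2 alone is looser, so these counts could not fall. No share over all 247 loci was computed for it.

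At chromosome 13, Igf2bp2KO was above WT in fragments and as multiples of the background, but not in the authors' fold enrichment, where the difference in the highest summit was 0.008 (log2). Both Igf2bp2KO libraries were above both WT libraries at 4 of 4 loci there and 1 of 3 on chromosome 10, as multiples of the background (21.5% of all 247) and in fragments (14.2%). They were below at 0 of the 7 on either scale (9.31% as multiples, 10.5% in fragments). Without WT replicate 1 the counts above were 4 of 4 and 2 of 3, by the same looser call and with no share over all 247 loci computed. The Igf2bp2KO lists hold only peaks of 7 or 8 fragments and more, and the part of this limit was not tested.

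**Figure D3:**
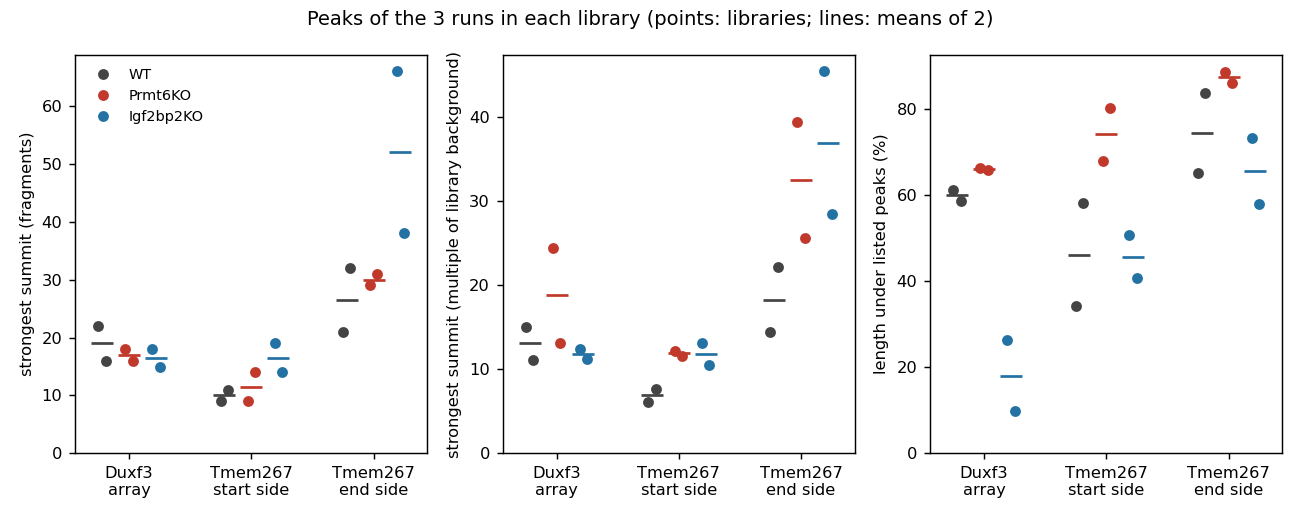
Each point is 1 library and each line the mean of the 2 libraries of a genotype, for the runs at the Duxf3 array, the start of Tmem267 and the end of Tmem267 (x axis). Panels give the highest summit in fragments, the highest summit as a multiple of the library's background, and the percentage of the run's length under listed peaks. Igf2bp2KO is highest in fragments at the end of Tmem267 (66 and 38) and covers least of the Duxf3 array (26.3% and 9.78%).

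For the highest summit of a region over background, Prmt6KO minus WT was 0.47 (log2) on chromosome 10, from values of 15.1 and 11.1 times in WT and 24.4 and 13.2 times in Prmt6KO. It rested on Prmt6KO replicate 1: without that library it was 0.032, and it was 0.917 without Prmt6KO replicate 2, 0.69 without WT replicate 1, 0.26 without WT replicate 2 and 0.19 in the authors' fold enrichment. On chromosome 13 it was 0.83, and 0.51 without WT replicate 1, 1.15 without WT replicate 2, 0.52 without Prmt6KO replicate 1, 1.14 without Prmt6KO replicate 2 and 0.52 in the authors' fold enrichment. Igf2bp2KO minus WT was -0.13 on chromosome 10, from 12.4 and 11.2 times in Igf2bp2KO, and 1.01 on chromosome 13, where it was 0.69 without WT replicate 1, 0.67 without Igf2bp2KO replicate 1 and 0.008 in the authors' fold enrichment. The chromosome 10 difference between Igf2bp2KO and WT was smaller than the spread between the WT libraries and turned to 0.09 without WT replicate 1. The highest peaks compared were not at the same place in each library: in the run at Duxf3 they lay near LOC100504180 in WT replicate 1, in Duxf3 in WT replicate 2 and at Gm9919 in Prmt6KO replicate 1.

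The shape of the signal along the run at the end of Tmem267 was alike between libraries. Over 23 bins of 1 kb, Spearman's rho between the heights of a pair of libraries was 0.714 to 0.744 for the 3 pairs within a genotype and 0.483 to 0.92, median 0.732, for the 12 pairs between genotypes. In the run at Duxf3 (19 bins) it was 0.172 to 0.734 within and -0.053 to 0.687 between genotypes, with medians of 0.451 and 0.472. In the short run at the start of Tmem267 (7 bins) it was -0.406 to 0.772 and -0.385 to 0.951. Wide peaks fill several bins and neighbouring bins are not independent, so these values describe the profiles only. Libraries of the same genotype were no closer to each other in median than libraries of different genotypes in the runs at Duxf3 and at the end of Tmem267.

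Other genes of the 2-cell stage and regulators of Dux were looked up in a list of 39 names, of which 37 matched the gene table (not Zscan4a and Zscan4e). A peak within 1 kb of a gene end was listed in both WT libraries at 2 of the 37 (5.41%), against 3.56% of all protein-coding genes. The 2 were Duxf3 and Sp110, a nuclear body gene. In both Prmt6KO libraries it was 13 of 37 (35.1%, against 29.0% of all protein-coding genes), and in both Igf2bp2KO libraries 1 (2.7%, against 0.208%), which was Duxf3. The WT and Prmt6KO shares of the list were near those of all genes, and Duxf3 alone made up the Igf2bp2KO count.

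Among the list genes, Sp110 was the one nearest to Duxf3 in height. The highest summit within 1 kb of its ends held 12 and 12 fragments in WT and 8 and 6 in Prmt6KO, and Igf2bp2KO listed none there. At Duxf3 it held 15 and 16 fragments in WT, 12 and 12 in Prmt6KO, and Igf2bp2KO had 17 and 12. By this measure Duxf3 was above Sp110 in every library. By the highest summit within the gene, Sp110 had 15 fragments in Prmt6KO replicate 2 against 14 at Duxf3, and Duxf3 was higher in the other libraries. By overlap with the 1 kb around the gene ends, the other 11 genes of the Prmt6KO count met peaks of 3 to 7 fragments. They were AF067063, Tcstv1, the zinc finger genes Zscan4b, Zscan4c and Zscan4d of the telomere-linked Zscan4 cluster, the deubiquitinase gene Usp17le, the arginase gene Arg2, Dppa2, a regulator of Dux, the histone methyltransferase gene Setdb1 and Smchd1, both repressors of chromatin, and Tmem92. Of these 11, Arg2, Setdb1, Zscan4c and Zscan4d had a peak in 1 WT library as well.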

How the data were processed

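H3R2me2a ChIP-seq peak lists of 6 libraries (WT, Prmt6KO and Igf2bp2KO, 2 each) were analysed, and the 3 inputs were not analysed here. Per the submitters' processing notes, build mm10 and the tools MACS2 2.1.0, HISAT2, Trim Galore, bedtools and bcl2fastq 2.17 were used, with no settings given. Each list held 1 library's peaks. The deposited lists give, per peak, a score, the fold enrichment at the summit (a ratio) and the -log10 of p and q. Per the file headers, companion tables hold the pileup at each summit, a coverage signal. The authors' fold enrichment equalled pileup plus 1 over background plus 1, with 1 background per list. Fragments in Igf2bp2KO were the deposited pileups divided by their step (0.277 and 0.302). Read totals are not stated in the sources used here.

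From these, each height was divided by its library's background, strong meant 6 times or more, and overlap meant at least 1 bp. Loci are unions of overlapping strong peaks on chromosomes 1 to 19 and X. Runs join loci strong in at least 3 libraries over gaps below 5 kb, a rule set after the peaks had been seen. Gene positions, promoters and the 29 protein-coding genes came from RefSeq tables of GRCm38.p6. Groups came from the sample titles. Named genes were Duxf3 and Tcstv1, the protein-coding genes of the regions with a strong peak, the 5 leading loci of each region, and list genes whose ends met a peak in both replicates of a genotype, up to 12 (13 here, because 7 tied for the last places). Members and lists were chosen with earlier results of these data known, so no test was run. Python 3.11.15, pandas 2.3.3, scipy 1.17.1 and matplotlib 3.10.9 were used, and the scripts were tested on simulated peaks. Alternatives were other height measures, thresholds, backgrounds, windows and leaving out each library.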

Additional observations from a re-analysis of the deposited data

How the results depend on the processing

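No paired analysis was possible because the labels tie no same-numbered libraries to a shared animal, culture or batch and no result comes from a test. Of the alternatives, 53 moved a value by less than the spread between libraries, or a count by no more than 1.5 times, 19 moved it further and 15 turned its sign. The cause of these changes was not tested. The Prmt6KO difference in highest summit on chromosome 10 (0.47) counts among the 53 although it ran from 0.032 to 0.917 with each library left out. With the authors' fold enrichment, the log2 difference in highest summit over background between Igf2bp2KO and WT was lower. It went from -0.13 to -0.98 on chromosome 10 and from 1.01 to 0.008 on chromosome 13, and the part of the fragment scaling was not tested. On chromosome 10 it was 0.12 with the 5 strongest loci, of which Igf2bp2KO replicate 2 had 3, and -0.351 to 0.086 with each library left out. The density of peaks against the flanks (log2) depended most on the peaks counted. On chromosome 10 in WT (0.11) it was -0.035 against the rest of the chromosome, 0.67 for covered bases, 3.30 for strong peaks and 3.30 for q of 0.05 or below, and -0.026 to 0.252 with a library left out. In Prmt6KO (-0.12) these values were -0.222, 0.082, 1.54 and 2.59. On chromosome 13 they were 0.30, 0.36, 2.54 and 2.54 in WT (-0.23), and 0.12, 0.19, 1.19 and 2.21 in Prmt6KO (-0.07). The 1.19 for strong peaks came from Prmt6KO replicate 2, with 14.1 per Mb in the region against 2.6 in the flank. Prmt6KO replicate 1 had 27.4 against 28.4. At q of 0.05 or below, loci strong in all 6 libraries fell from 3 to 0 (chromosome 10) and 4 to 2 (chromosome 13). Neither Igf2bp2KO library had a peak at that q in the chromosome 10 region, so no locus there could count. In the chromosome 13 region they had 5 and 5. The shared loci also fell to 0 and 2 when strong peaks had to cover 50% of the locus. That alternative was chosen after seeing the data because the planned overlap of 50% of the shorter feature is met by construction. With a library left out the shared loci were 3 to 6 and 4 to 6. Igf2bp2KO replicate 2 was the one whose absence gave 6 on chromosome 10. The list genes with a gene-end peak in WT (2) were 7 within 2.5 kb, 7 over gene bodies and 5 to 9 with a library left out. In Prmt6KO (13) they were 29, 21, 2 for strong peaks and 18 to 26. With a library left out, a peak was required in the remaining library only, so these counts could not fall. In Igf2bp2KO the count was 1 under each alternative. The lists differ in what they can show of weak peaks: the lowest summit listed has 2 fragments in Prmt6KO replicate 1 and 8 and 7 in Igf2bp2KO, whose background is close to that of WT, where it has 4.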
